A study of Homo sapiens with 4 samples.

Results

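ANKRD1 and 9 genes of the YAP/TAZ-TEAD pathway are described here in an established line of human lung adenocarcinoma cells, H2030. The genes were picked by symbol from the deposited expression table: ANKRD1, CTGF (now CCN2), CYR61 (now CCN1), AMOTL1, AMOTL2, AJUBA, LATS2, YAP1, WWTR1 (the gene of TAZ) and TEAD1. All 10 were found among 20252 symbols. ANKRD1 was chosen because its level differed between the groups of this study, so the differences of the 10 genes between groups, and any count of them past a threshold, are descriptions and not tests of these genes. The question put to the data was whether other YAP/TAZ targets share the lower ANKRD1 level.

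The study profiled poly(A) RNA with a stranded kit in 2 libraries labelled GALNT3 overexpression and 2 libraries labelled control vector. All cells were kept in RPMI with fetal bovine serum, with no treatment recorded. Neither the vector's promoter nor the number of clones is given in the labels. Levels are in FPKM, fragment numbers scaled to the length of the transcript and to the size of the library. GALNT3, an enzyme that starts mucin-type O-glycosylation, measured 0.0164 and 0 FPKM under the label GALNT3 overexpression, against 4.34 and 5.34 FPKM under the label vector. This goes against the labels, so the groups are called OE-labelled and vector-labelled throughout, after their labels. Every direction below would turn if the labels had been exchanged.

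The libraries were alike in breadth: FPKM columns summed to 401366 to 448194, and 10915 to 11073 genes reached 1 FPKM in a library. The keratins KRT8 (109 to 145 FPKM) and KRT18 (331 to 439 FPKM) were abundant, while EPCAM (0.459 to 1.398 FPKM) and CDH1 (0.0495 to 0.209 FPKM) were low, and KRT19 was listed at 0 in all 4 libraries. Of the markers of other cell types, 0 of 5 striated muscle genes and 0 of 4 endothelial genes reached a mean of 1 FPKM. Of 5 leukocyte genes only CD68, which is not restricted to leukocytes, did so, and the 5 summed to 18.1 and 16.6 FPKM in the OE-labelled libraries, against 30.6 and 27.5 FPKM in the vector-labelled libraries. PTPRC and CD3E were at or near 0, and the part of CD68 in the results was not tested. Of 5 fibroblast genes COL1A1 alone reached that mean, at 3.57 to 4.89 FPKM, and the 5 summed to 3.84 and 4.96 FPKM in the OE-labelled libraries, against 4.70 and 4.05 FPKM in the vector-labelled libraries. In bulk RNA, fewer cells that express a gene and less RNA per cell cannot be told apart.

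The Hippo pathway is a kinase cascade in which MST and LATS kinases phosphorylate the coactivators YAP and TAZ, keeping them out of the nucleus. Unphosphorylated YAP and TAZ enter the nucleus, bind TEAD transcription factors and raise genes such as CTGF, CYR61 and ANKRD1, which are widely used as readouts of the pathway in epithelial and cancer cells. Several targets, among them LATS2 and AMOTL2, code for proteins that restrain YAP and TAZ. ANKRD1 codes for a muscle ankyrin repeat protein best known from heart muscle, where it is found in the sarcomere and the nucleus.

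TEAD factors recognise the letters GGAATG. The RefSeq promoters (GRCh38.p14) run from 250 bases before to 50 bases after a transcription start, and 8 of the 10 genes had an entry; CYR61 and TEAD1 did not. The letters GGAATG, or their reverse complement CATTCC, were found in a promoter of 6 of the 8 genes (75%), against 16.7% of 27305 genes. The genes were picked for their link to TEAD factors, so this share is a description and not a test. Counted by start, among all 35116 promoters 14% held them at least once, 1.37% at least 2 times and 0.128% at least 3 times. The window before the second AJUBA start holds the motif but is not printed. The 250 bases before the start are printed for 3 target genes and for YAP1, whose windows also hold it, in gene orientation, with the motif in capitals. They lie at chr10:90921088-90921337 (ANKRD1, minus strand), chr6:131951373-131951622 (CTGF, minus strand), chr3:134374448-134374697 (AMOTL2, second start, minus strand) and chr11:102110197-102110446 (YAP1, plus strand).
ANKRD1: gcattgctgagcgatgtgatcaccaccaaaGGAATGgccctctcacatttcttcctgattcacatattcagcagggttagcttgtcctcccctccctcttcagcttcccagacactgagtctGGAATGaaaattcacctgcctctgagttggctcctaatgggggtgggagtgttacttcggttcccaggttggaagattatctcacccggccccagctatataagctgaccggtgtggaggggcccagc
CTGF: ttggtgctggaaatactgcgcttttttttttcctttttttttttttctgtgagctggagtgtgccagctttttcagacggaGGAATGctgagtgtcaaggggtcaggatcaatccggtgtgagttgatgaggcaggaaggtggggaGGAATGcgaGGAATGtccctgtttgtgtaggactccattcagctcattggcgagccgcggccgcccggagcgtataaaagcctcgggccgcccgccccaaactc
AMOTL2: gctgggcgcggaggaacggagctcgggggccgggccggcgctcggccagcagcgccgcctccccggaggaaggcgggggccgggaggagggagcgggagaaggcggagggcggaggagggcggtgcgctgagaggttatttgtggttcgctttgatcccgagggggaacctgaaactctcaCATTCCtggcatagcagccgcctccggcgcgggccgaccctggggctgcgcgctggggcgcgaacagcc
YAP1: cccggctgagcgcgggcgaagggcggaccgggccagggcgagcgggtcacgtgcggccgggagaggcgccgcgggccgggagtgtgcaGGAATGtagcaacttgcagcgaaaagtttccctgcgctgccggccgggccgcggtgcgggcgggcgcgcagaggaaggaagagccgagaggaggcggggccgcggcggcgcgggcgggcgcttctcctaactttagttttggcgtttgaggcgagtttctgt

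ANKRD1 held the motif at -220 and -128 and CTGF at -169, -104 and -95, all on the strand of the gene, counted from the transcription start. Both also held the letters TATAA, at -30 in ANKRD1 and -32 in CTGF. In the other genes the motif was found once: at -69 on the opposite strand of the second AMOTL2 start, at -162 in YAP1, at 10 bases past the start in LATS2 and at -59 of the second AJUBA start. No match was found in AMOTL1 or at either start of WWTR1. The AP-1 letters TGAGTCA, which bind JUN and FOS family dimers, were in 0 of the 8 genes on either strand, against 6.05% of all genes with a promoter entry (4.95% of promoters). A match is a description of the letters, not a bound site, and says nothing of a factor's presence.

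**Figure D1:**
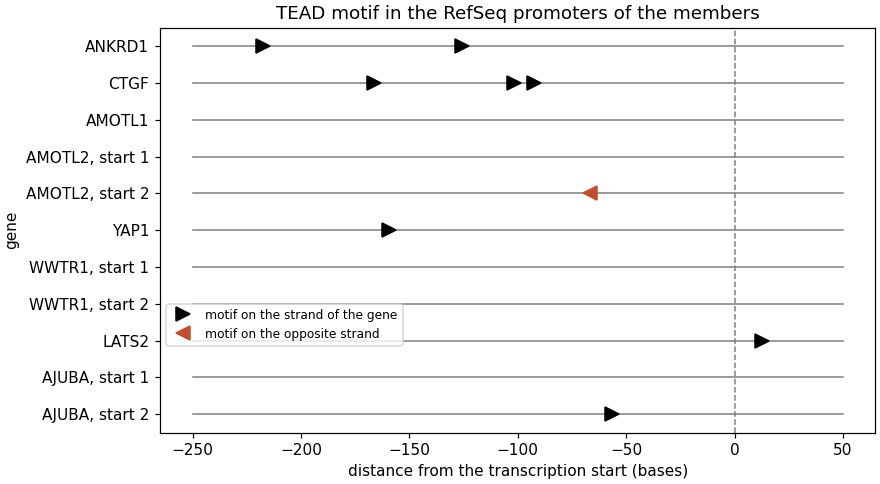
Matches of the TEAD motif GGAATG in the RefSeq promoters of the 8 genes with an entry; the x axis is the distance from the transcription start in bases, each line is one start and each triangle is one match, pointing along its strand. CTGF has 3 matches and ANKRD1 has 2, and the other genes have at most 1 at a start.

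ANKRD1 (chromosome 10, 90912096 to 90921087, GRCh38.p14) stood at 5.38 and 5.39 FPKM in the OE-labelled libraries, against 14.4 and 18.2 FPKM in the vector-labelled libraries. Both OE-labelled libraries lay below both vector-labelled ones, with means of 5.38 ± 0.00707 FPKM OE-labelled and 16.3 ± 2.67 FPKM vector-labelled (SD, n = 2 each). The difference on the log2(FPKM + 1) scale was -1.43 ± 0.12 (SE, 95% interval -1.72 to -1.14), and the ratio of means was 0.331. Of 10998 tested genes, 21 (0.191%) had a difference as low or lower. Since ANKRD1 was chosen on this contrast, its place there is a description.

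Fragments could be recovered from ANKRD1's FPKM, whose values were whole multiples of 1 fragment within 0.00235 of a fragment. They came to 189 and 188 fragments in the OE-labelled libraries, against 558 and 649 in the vector-labelled libraries. Corrected for relative depth (0.973 and 0.966 in the OE-labelled libraries, 1.07 and 0.988 in the vector-labelled libraries), the ratio was 0.332 with an exact 95% interval of 0.295 to 0.373, which covers counting error only. Within the vector-labelled group, replicate 2 had 1.26 times the ANKRD1 of replicate 1 (interval 1.13 to 1.42). The same quantity was 1.002 (0.814 to 1.23) within the OE-labelled group. In the deposited table ANKRD1 was the 1 gene of the 10 whose row was out of alphabetical order, at row 16267 against place 680 by alphabet. GALNT3, on which the doubt about the labels rests, was also out of order, at row 20173 against place 6929. How many rows of the whole table were out of order was not counted. The value of 1 fragment times the longest coding transcript, a check that symbol and values belong together, was 55.4 FPKM bases for ANKRD1, against 46.8 to 51.1 for AMOTL1, AMOTL2 and LATS2, whose rows were in order, and 62.6 for GALNT3.

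**Figure D2:**
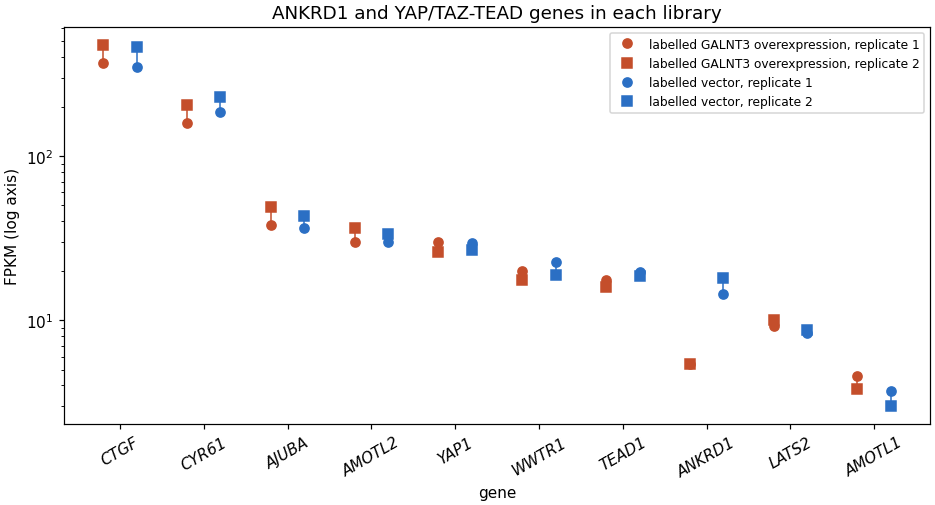
FPKM (log axis) of the 10 genes in each library, with the OE-labelled libraries left of the vector-labelled libraries; each point is 1 library. ANKRD1 is the gene whose groups stand apart most, with 5.38 and 5.39 FPKM in the OE-labelled libraries against 14.4 and 18.2 FPKM in the vector-labelled ones.

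CTGF and CYR61, matricellular proteins secreted by the cell and the most used YAP/TAZ targets, did not show a difference of the size seen for ANKRD1. CTGF (chromosome 6, 131948176 to 131951372) stood at 371 and 477 FPKM in the OE-labelled libraries, against 351 and 464 FPKM in the vector-labelled libraries. The groups overlapped, with a difference of 0.06 ± 0.17 (SE, interval -0.34 to 0.46) on the log2(FPKM + 1) scale and means of 424 ± 74.9 FPKM OE-labelled and 408 ± 79.6 FPKM vector-labelled (SD, n = 2 each). The sign of the CTGF difference turned with quantile normalization (-0.032). CYR61 (chromosome 1, 85580761 to 85583950) stood at 160 and 206 FPKM in the OE-labelled libraries, against 187 and 229 FPKM in the vector-labelled libraries. These groups overlapped too, with a difference of -0.19 ± 0.15 (SE, interval -0.54 to 0.16). The intervals of CTGF and CYR61 do not reach the ANKRD1 value of -1.43. That of IGFBP3, a target from the wider list described below, does (-1.65 to -0.52). CTGF and CYR61 were the 2 highest of the 10 genes in both groups, while ANKRD1 ranked 9 among the OE-labelled libraries and 8 among the vector-labelled libraries.

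AMOTL1 and AMOTL2 code for angiomotin-like scaffolds that bind YAP at junctions, and AMOTL2 is itself a YAP/TAZ target. AMOTL1 (chromosome 11, 94706460 to 94876748) stood at 4.55 and 3.81 FPKM in the OE-labelled libraries, against 3.71 and 3.02 FPKM in the vector-labelled libraries. Both OE-labelled libraries were above both vector-labelled ones, and the difference was 0.25 ± 0.13 (SE, interval -0.06 to 0.56). In fragments AMOTL1 had 796 and 661 in the OE-labelled libraries, against 716 and 536 in the vector-labelled libraries. The depth-corrected ratio was 1.24 (1.15 to 1.34, counting error only), while replicate 2 had 0.836 and 0.813 times the AMOTL1 of replicate 1 within the OE-labelled and vector-labelled groups. AMOTL2 (chromosome 3, 134355345 to 134375417) stood at 29.9 and 36.6 FPKM in the OE-labelled libraries, against 30.1 and 33.3 FPKM in the vector-labelled libraries. Its groups overlapped, and the difference was 0.06 ± 0.12 (SE, interval -0.21 to 0.34). In fragments AMOTL2 had 2838 and 3452 in the OE-labelled libraries, against 3153 and 3213 in the vector-labelled libraries, and replicate 2 had 1.23 and 1.11 times the AMOTL2 of replicate 1 within the OE-labelled and vector-labelled groups.

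LATS2 and AJUBA act on the kinase arm. LATS2 is a kinase that phosphorylates YAP and TAZ, and is itself a target of them, and AJUBA is a LIM protein that binds and inhibits LATS kinases. LATS2 (chromosome 13, 20973036 to 21061586) stood at 9.26 and 10.00 FPKM in the OE-labelled libraries, against 8.33 and 8.72 FPKM in the vector-labelled libraries. Both OE-labelled libraries were above both vector-labelled ones, and the difference was 0.16 ± 0.10 (SE, interval -0.07 to 0.38). In fragments LATS2 had 982 and 1053 in the OE-labelled libraries, against 975 and 940 in the vector-labelled libraries, a depth-corrected ratio of 1.13 (1.06 to 1.20, counting error only). AJUBA (chromosome 14, 22971177 to 22982551) stood at 38.1 and 49.0 FPKM in the OE-labelled libraries, against 36.2 and 43.4 FPKM in the vector-labelled libraries. The groups overlapped, with a difference of 0.12 ± 0.14 (SE, interval -0.21 to 0.45).

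The coactivator genes and the gene of their DNA-binding partner are YAP1, WWTR1 and TEAD1. YAP1 (chromosome 11, 102110447 to 102233424) stood at 30.1 and 25.9 FPKM in the OE-labelled libraries, against 29.7 and 26.6 FPKM in the vector-labelled libraries. WWTR1 (chromosome 3, 149517235 to 149724788) stood at 20.0 and 17.6 FPKM in the OE-labelled libraries, against 22.7 and 18.8 FPKM in the vector-labelled libraries. The groups overlapped for both coactivators, and the differences were -0.01 ± 0.11 (SE, interval -0.26 to 0.24) for YAP1 and -0.13 ± 0.12 (SE, interval -0.41 to 0.15) for WWTR1. TEAD1 (chromosome 11, 12674421 to 12944737), which carries YAP and TAZ to DNA, stood at 17.5 and 16.0 FPKM in the OE-labelled libraries, against 19.6 and 18.5 FPKM in the vector-labelled libraries. Both OE-labelled libraries were below both vector-labelled ones, and the difference was -0.18 ± 0.09 (SE, interval -0.40 to 0.04).

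In limma's moderated fit across all tested genes, 0.5% of tested genes were past an adjusted p of 0.05, and of the 10 genes ANKRD1 was, which its choice on this contrast had fixed. ANKRD1 was also the 1 gene of the 10 with an unadjusted p under 0.05, in the lower direction, where 3.72% of tested genes had one. Of the other genes, 0 of 9 were past the threshold, and 0 of 9 had an unadjusted p under 0.05, with differences from -0.19 (CYR61) to 0.25 (AMOTL1) and a median of 0.06. The groups did not overlap for 2 genes higher (AMOTL1 and LATS2) and 2 lower (ANKRD1 and TEAD1) in the OE-labelled libraries, among 10 genes, where 20.9% and 15.3% of all tested genes did so in these directions. The genes were chosen on this contrast, so nothing is read from these counts. With no filter on low values 0 of the 10 were past the threshold, ANKRD1 included. All 10 passed the low-value filter, an average of 1 FPKM or more.

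**Figure D3:**
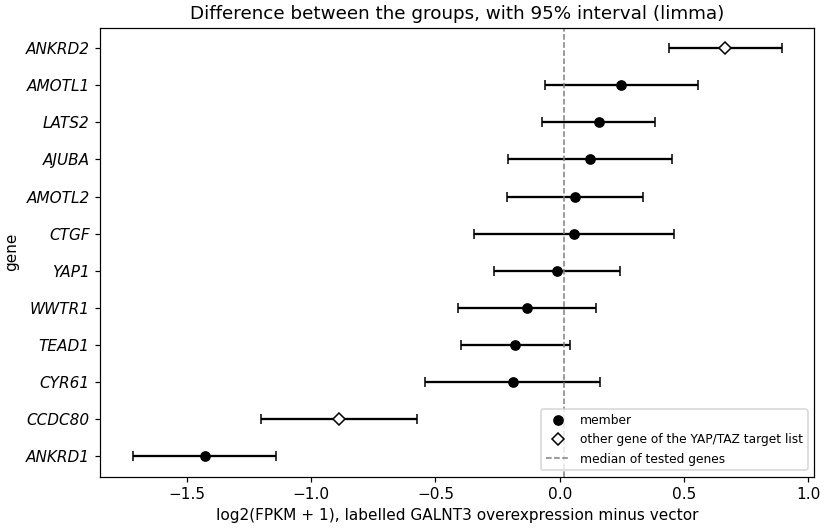
Difference on the log2(FPKM + 1) scale between OE-labelled libraries and the vector-labelled libraries for the 10 genes, with limma's 95% intervals. Open diamonds are ANKRD2 and CCDC80 from the wider list of YAP/TAZ targets, and the dashed line is the median of all tested genes. The ANKRD1 interval (-1.72 to -1.14) stands apart from the intervals of the other 9 of the 10 genes, each of which includes 0. It overlaps the interval of CCDC80 (-1.20 to -0.57). The intervals of CCDC80 and ANKRD2 (0.44 to 0.89) do not include 0.

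In 6 of the 10 genes (CTGF, CYR61, AJUBA, AMOTL2, YAP1 and WWTR1) the libraries of a group differed more from each other than the groups did. CTGF was 0.36 and CYR61 0.36 higher on the log2(FPKM + 1) scale in replicate 2 than in replicate 1 of the OE-labelled libraries, against 0.40 and 0.29 in the vector-labelled libraries. AJUBA (0.35 OE-labelled and 0.26 vector-labelled) and AMOTL2 (0.28 OE-labelled and 0.14 vector-labelled) did likewise. YAP1 (-0.21 OE-labelled and -0.15 vector-labelled) and WWTR1 (-0.17 OE-labelled and -0.27 vector-labelled) ran the other way, as did AMOTL1 (-0.21 OE-labelled and -0.23 vector-labelled), whose difference between groups was 0.25. In all, 6 of the 10 genes were higher and 4 lower in both libraries numbered 2, where 20.8% and 47.7% of all tested genes were. ANKRD1 counts among the 6, although its OE-labelled libraries were nearly equal, at 5.38 and 5.39 FPKM. Both libraries of number 2 lay on one side of both of number 1 in 6 of the 10 genes (60%), against 46.9% of all tested genes. By group, the libraries were separated in this way in 36.2% of all tested genes, fewer than by replicate number. ANKRD1 differed by 0.00 between the OE-labelled replicates and by 0.32 between the vector-labelled ones, against -1.43 between groups. Replicate numbers mark no shared culture or day in the labels.

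**Figure D4:**
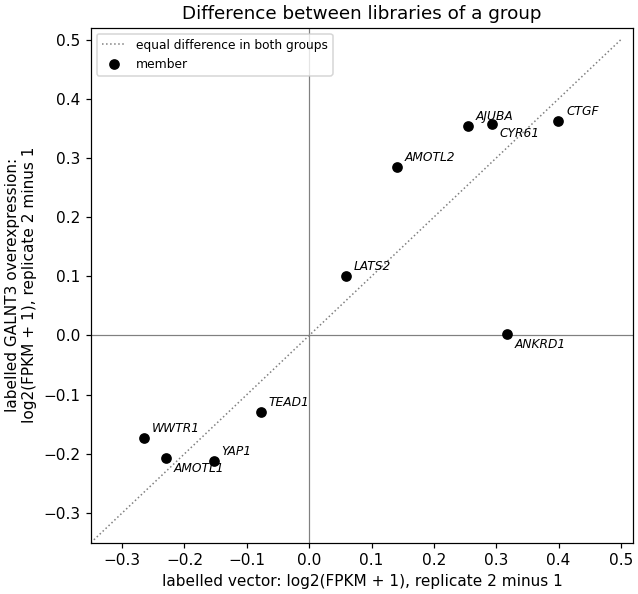
Difference between replicate 2 and replicate 1 on the log2(FPKM + 1) scale for the 10 genes, with OE-labelled libraries on the y axis and the vector-labelled libraries on the x axis; each point is 1 gene. Genes in the upper right, such as CTGF (0.36 OE-labelled and 0.40 vector-labelled), were higher in both libraries numbered 2, and those in the lower left, such as AMOTL1 (-0.21 OE-labelled and -0.23 vector-labelled), were lower.

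The wider set of 40 YAP/TAZ targets, of which 38 were tested, held genes on both sides. In this list 1 gene rose (ANKRD2) and 2 were lower (ANKRD1 and CCDC80) at an adjusted p of 0.05, where 0.109% and 0.391% of all tested genes were called higher and lower. Beside ANKRD1 and the other chosen genes, 30 tested targets held 1 gene called higher and 1 called lower. At an unadjusted p under 0.05 there were 6 of the 30 (20%), 1 higher and 5 lower. Of all 10998 tested genes 7.34% had such a p, 398 genes in the higher direction and 409 (3.72%) in the lower. The list was chosen with earlier results of these data known, so these counts and shares are descriptions and not tests. The median difference of the 38 was 0.01, against 0.02 over all tested genes. GGAATG was in a promoter of 14 of 29 listed targets with an entry (48.3%), against 7 of 25 upstream regulators (28%) and 6 of 19 SRF/MRTF targets (31.6%). It was in 4 of 14 genes listed as YAP/TAZ, TEADs and nuclear partners (28.6%) and in 16.7% of 27305 genes. These counts are not separate. The targets include ANKRD1 and CTGF, counted above, and share AMOTL1, AMOTL2, LATS2 and AJUBA, also counted above, with the upstream regulators. Of the 38, 9 lay wholly above, 9 wholly below and 20 overlapped (23.7% on either side, against 20.9% above and 15.3% below over all tested genes).

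ANKRD2, a muscle ankyrin repeat protein of the same family as ANKRD1, stood at 11.2 and 11.0 FPKM in the OE-labelled libraries, against 6.93 and 6.36 FPKM in the vector-labelled libraries. It was higher in both OE-labelled libraries, with a difference of 0.67 ± 0.10 (SE, limma adjusted p = 0.0423). The call was lost when any 1 library was left out (adjusted p from 0.0902 to 0.249) and with no filter on low values (0.202). CCDC80, a secreted matrix protein, stood at 1.398 and 1.29 FPKM in the OE-labelled libraries, against 3.77 and 2.94 FPKM in the vector-labelled libraries. Its difference was -0.89 ± 0.13 (SE, limma adjusted p = 0.0493), and leaving out 1 library lost the call for vector-labelled replicate 1 (0.195), vector-labelled replicate 2 (0.0666) and OE-labelled replicate 2 (0.0504). The promoters of ANKRD2 and CCDC80 held no GGAATG on either strand. The ratio of means was 0.400 for CCDC80 and 1.67 for ANKRD2, against 0.331 for ANKRD1. IGFBP3 binds insulin-like growth factors. It was at 56.1 and 87.0 FPKM in the OE-labelled libraries, against 121 and 184 FPKM in the vector-labelled libraries, a ratio of means of 0.470. Its difference of -1.08 ± 0.24 (SE) did not pass with group as the only term (limma adjusted p = 0.183). With replicate number as a second term it passed (limma adjusted p = 4.93e-06), as did EDN1 (0.0187) and NEGR1 (0.0458). The replicate numbers pair nothing in the labels. IGFBP3 had an interval of -1.65 to -0.52, which, unlike that of CCDC80, reached the ANKRD1 value of -1.43. Its groups did not overlap, and it passed when OE-labelled replicate 2 was left out (0.00777). EDN1, the vasoconstrictor endothelin-1, was at 2.15 and 1.98 FPKM in the OE-labelled libraries, against 3.25 and 3.48 FPKM in the vector-labelled libraries (-0.51 ± 0.11 SE, limma adjusted p = 0.180). The groups did not overlap for EDN1, which did not pass with group as the only term either. Next in order of unadjusted p came NEGR1, an adhesion protein first studied in neurons, at 5.63 and 4.87 FPKM in the OE-labelled libraries, against 7.17 and 6.83 FPKM in the vector-labelled ones (-0.36 ± 0.11 SE). FSTL1, a secreted follistatin-like glycoprotein, differed by -0.35 ± 0.13 (SE), FJX1 by -0.33 ± 0.14 (SE) and FOXF2, a forkhead transcription factor, by 0.27 ± 0.13 (SE). Their limma adjusted p-values were 0.570, 0.681 and 0.744, so with group as the only term NEGR1 (0.428) and these 3 did not pass.

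**Figure D5:**
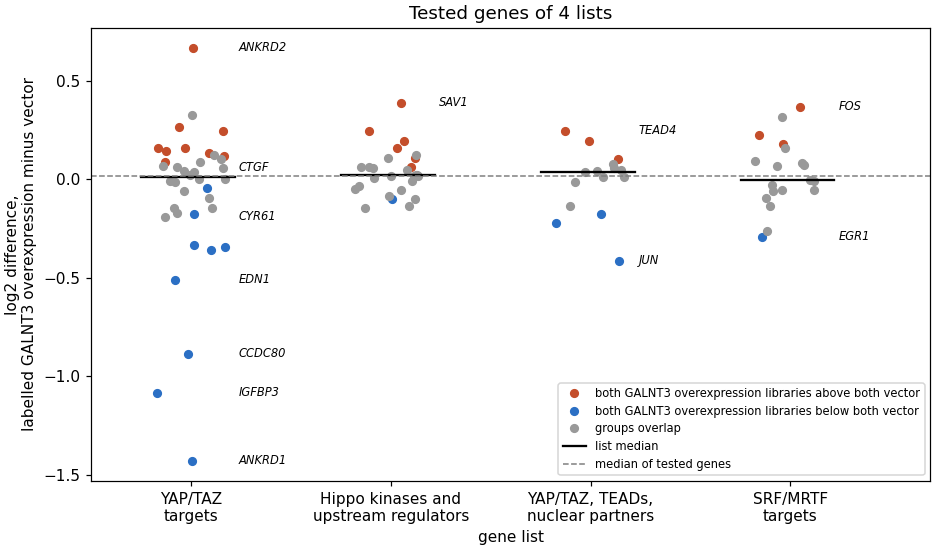
Difference between OE-labelled libraries and the vector-labelled libraries on the log2(FPKM + 1) scale for the tested genes of 4 lists; each point is 1 gene and the dashed line is the median of all tested genes. YAP/TAZ targets run from -1.43 (ANKRD1) to 0.67 (ANKRD2), while the other 3 lists run from -0.41 to 0.39.

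The kinases and scaffolds upstream of YAP and TAZ held no call. Of 30 listed genes 27 were tested, 0 passed in limma at an adjusted p of 0.05, where 0.5% of all tested genes did, and 1 (3.7%) had an unadjusted p under 0.05, where 7.34% of all tested genes had. That gene was SAV1, the scaffold of the MST kinases, at 19.4 and 19.0 FPKM in the OE-labelled libraries, against 15.3 and 13.7 FPKM in the vector-labelled libraries (0.39 ± 0.10 SE, limma adjusted p = 0.254). The MST kinase gene STK3 was at 18.7 and 18.2 FPKM in the OE-labelled libraries, against 18.2 and 15.9 FPKM in the vector-labelled libraries, and the tumour suppressor NF2 was at 13.3 and 15.8 FPKM, against 13.3 and 15.4 FPKM. MOB1A, an activator of LATS kinases and the most abundant tested gene of the list, was at 45.9 and 39.6 FPKM in the OE-labelled libraries, against 43.7 and 38.4 FPKM in the vector-labelled libraries. The groups overlapped for STK3, NF2 and MOB1A, and the 0.06 difference of MOB1A changed sign with a library left out. WWC1, the scaffold protein KIBRA, had 9.89 and 11.9 FPKM in the OE-labelled libraries, against 9.35 and 9.31 FPKM in the vector-labelled libraries. The 2 OE-labelled values lay above the 2 vector-labelled ones (0.20 ± 0.11 SE, limma adjusted p = 0.788). Differences in the list ran from -0.14 (TAOK3) to 0.39 with a median of 0.02, and 6 of the 27 genes (22.2%) lay wholly above and 1 (3.7%) wholly below, against 20.9% and 15.3% of all tested genes.

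Among 15 tested genes of 18 listed as YAP/TAZ, TEADs and nuclear partners, 0 passed in limma, where 0.5% of all tested genes did, and 2 (13.3%) had an unadjusted p under 0.05, where 7.34% of all tested genes had. TEAD4, a TEAD family factor, was at 42.3 and 41.3 FPKM in the OE-labelled libraries, against 34.7 and 35.5 FPKM in the vector-labelled libraries (0.25 ± 0.08 SE, limma adjusted p = 0.520). JUN, an AP-1 subunit that can join TEAD factors on enhancers, was at 3.79 and 4.76 FPKM in the OE-labelled libraries, against 5.34 and 6.74 FPKM in the vector-labelled libraries (-0.41 ± 0.14 SE, limma adjusted p = 0.528). TEAD2 (10.8 and 12.6 FPKM, against 12.2 and 9.84 FPKM) overlapped between the OE-labelled libraries and the vector-labelled libraries, as did TEAD3 (3.09 and 2.98 FPKM, against 3.37 and 2.67 FPKM). VGLL4, a repressor that competes with YAP for TEAD factors, was at 8.15 and 8.16 FPKM in the OE-labelled libraries, against 6.85 and 7.14 FPKM in the vector-labelled libraries (0.20 ± 0.10 SE, limma adjusted p = 0.744). FOSL1, an AP-1 subunit and the most abundant of the list, was at 40.5 and 61.0 FPKM in the OE-labelled libraries, against 36.6 and 63.8 FPKM in the vector-labelled libraries, so that its groups overlapped. By FPKM, which is scaled to length, TEAD1 was the second highest of the 4 TEAD genes, after TEAD4.

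SRF and the MRTF coactivators form a route from actin to transcription that shares target genes with YAP and TAZ. Of 21 genes listed as SRF/MRTF targets, which include SRF, MRTFA and MRTFB themselves, 19 were tested. In limma 0 passed, where 0.5% of all tested genes did, and 0 had an unadjusted p under 0.05, where 7.34% had. Of the 19, 3 (15.8%) lay wholly above and 1 (5.26%) wholly below, against 20.9% and 15.3% of all tested genes, and the differences ran from -0.29 to 0.37. VCL, the focal adhesion protein vinculin, was at 51.7 and 68.1 FPKM in the OE-labelled libraries, against 61.5 and 65.7 FPKM in the vector-labelled libraries. TAGLN, a smooth muscle actin-binding protein, was at 6.91 and 6.84 FPKM in the OE-labelled libraries, against 6.08 and 8.45 FPKM in the vector-labelled libraries. The groups overlapped for both. CNN2, the actin-binding calponin 2, was at 135 and 152 FPKM in the OE-labelled libraries, against 123 and 122 FPKM in the vector-labelled libraries (0.22 ± 0.10 SE, limma adjusted p = 0.681). FOS, an immediate early AP-1 subunit, was at 2.45 and 2.52 FPKM in the OE-labelled libraries, against 1.29 and 2.18 FPKM in the vector-labelled libraries (0.37 ± 0.17 SE, limma adjusted p = 0.712). EGR1, an immediate early zinc finger factor, was at 0.927 and 1.12 FPKM in the OE-labelled libraries, against 1.15 and 1.86 FPKM in the vector-labelled libraries. CNN2, FOS and beta-actin (ACTB) were the 3 genes wholly above, and EGR1 the 1 wholly below. TPM2, a tropomyosin, had overlapping groups (-0.26 ± 0.22 SE), with a sign that turned when vector-labelled replicate 2 was left out.

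The genes whose pattern over the 4 libraries was most like that of ANKRD1 were taken by Euclidean distance between centred log2(FPKM + 1) values, among 7870 genes averaging 5 FPKM or more. They were HTATIP2 (distance 0.393), VAMP8 (0.431), SEC22C (0.481), TGM2 (0.486) and RMRP (0.488). HTATIP2 stood at 7.05 and 6.27 FPKM in the OE-labelled libraries, against 19.0 and 16.6 FPKM in the vector-labelled libraries. TGM2, tissue transglutaminase, stood at 47.6 and 51.6 FPKM in the OE-labelled libraries, against 112 and 101 FPKM in the vector-labelled libraries. VAMP8, a vesicle fusion protein, stood at 4.77 and 5.16 FPKM in the OE-labelled libraries, against 13.1 and 11.7 FPKM in the vector-labelled libraries. In each of these 3 genes both OE-labelled libraries lay below both vector-labelled ones, with log2 differences of -1.29 (HTATIP2), -1.08 (TGM2) and -1.16 (VAMP8). SEC22C (-1.07) and RMRP (-1.14), the RNA of RNase MRP, differed likewise. None of these 5 genes is on the 4 pathway lists, and SEC22C shares its locus with SS18L2 and NKTR, so its fragments may be uncertain. The distance measures likeness over 4 libraries and was computed on the same contrast as the ANKRD1 difference.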

How the data were processed

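The authors deposited 1 table of 20252 gene symbols with 1 FPKM column for each of 4 libraries. The unit was read from the values; the submitters' processing notes name TopHat and GenomeStudio 2010.1, while the counting program and annotation remain not given in the sources. FPKM divides by each library's total, so abundant genes can move the other values. From these values, the 10998 genes averaging 1 FPKM or more were transformed to log2(FPKM + 1), which understates changes of low genes. The groups were compared with limma 3.58.1 (eBayes with trend, group as the only term, 2 residual and 5.34 prior degrees of freedom) in R 4.3.3. P-values are two-sided, Benjamini-Hochberg adjusted over all tested genes, with a threshold of 0.05. The fit was tested on simulated data. Fragments were recovered in Python 3.11.15 where all 4 values were whole multiples of 1 fragment within 0.005, and exact intervals used scipy 1.17.1. The total number of reads is unknown. Promoters and positions are RefSeq's on GRCh38.p14, matched by symbol; the deposited table holds no coordinates.

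Named genes were the 10 genes, from each list every called gene, up to 6 further genes with the smallest p and the most abundant gene, and the 5 genes most like ANKRD1. STK3, NF2, TEAD2, TEAD3, VCL and TAGLN fall outside this rule and were chosen after their values were seen. The 10 genes, the lists and the named-gene rule were chosen with earlier results of these data known. Whether replicate libraries are separate cultures is not labelled; p-values therefore reflect only the variation among these libraries, which may be technical. Other pseudocounts, filters, normalizations, a replicate block and leaving out each library were tried.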

Additional observations from a re-analysis of the deposited data

How the results depend on the processing

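ANKRD1 was chosen on this contrast in these 4 libraries, so its direction and call say nothing of stability. Its difference ran from -1.59 to -1.03 over 12 alternatives, and with no filter on low values it was not past the threshold (-1.43, adjusted p = 0.138). Leaving out 1 library gave -1.59 to -1.27.

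The count of called genes was 55; it was 12 with no filter, 31 for genes averaging 5 FPKM or more and 443 with a replicate block, and 23 to 83 when 1 library was left out. Of the 10 genes, 0 were called with no filter. Of the YAP/TAZ targets 0 were called with no filter, 7 with the replicate block (2 higher, 5 lower) and 1 to 2 with 1 library left out. The 5 lower under the block were ANKRD1, CCDC80, IGFBP3 (adjusted p = 4.93e-06), EDN1 (0.0187) and NEGR1 (0.0458). The block gave 1 call in each of the other 3 lists (SAV1, JUN and JUNB). ANKRD2 also lost its call without limma's trend (adjusted p = 0.0509), and CCDC80 with a pseudocount of 5 (0.0561), no filter (0.249) and quantile normalization (0.0704). The replicate numbers pair nothing in the labels, and replicate 2 minus 1 correlated at 0.218 between the groups across 10998 genes, which are not independent.

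The differences of CTGF and FOSL1 turned with quantile normalization (-0.032 and -0.0091). With 1 library left out, a lone library being assumed to vary like the others, the log2 difference ran from -0.14 to 0.26 for CTGF, -0.081 to 0.20 for AMOTL2, -0.12 to 0.094 for YAP1, -0.054 to 0.30 for AJUBA, -0.046 to 0.16 for MOB1A, -0.35 to 0.43 for FOSL1 and -0.54 to 0.0088 for TPM2. The cause was not tested. With 2 libraries a group, the 95% intervals of the 9 other genes reach from -0.54 to 0.56.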

Other observations

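Genes beside ANKRD1 on chromosome 10 were looked at in the same way. Within 1 Mb of ANKRD1, 6 of 35 RefSeq genes were tested. In limma 0 of 6 passed at an adjusted p of 0.05, where 0.5% of all tested genes did. An unadjusted p under 0.05 was found in 0 of 6, where 7.34% of all tested genes had one. RPP30, a subunit of ribonuclease P, was at 9.36 and 8.18 FPKM in the OE-labelled libraries, against 10.4 and 9.93 FPKM in the vector-labelled libraries. PCGF5, a Polycomb group RING finger protein, was at 14.9 and 15.2 FPKM in the OE-labelled libraries, against 15.8 and 14.7 FPKM in the vector-labelled libraries. The log2 differences of the 6 genes ran from -0.27 (HTR7) to 0.15 (FGFBP3), against -1.43 for ANKRD1. HTR7, RPP30 and HECTD2 were lower in both OE-labelled libraries, where 15.3% of all tested genes were. The groups overlapped for PCGF5, TNKS2 and FGFBP3.

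The third muscle ankyrin repeat gene, ANKRD23, was at 1.93 and 2.11 FPKM in the OE-labelled libraries, against 2.46 and 2.36 FPKM in the vector-labelled libraries. It was lower in both OE-labelled libraries, where 15.3% of all tested genes were, while ANKRD1 and ANKRD2 stood on opposite sides. Of the other markers of striated muscle, MYH7 and TNNT2 were listed at 0 in all 4 libraries.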
